A study of Drosophila melanogaster with 13 samples.

Results

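The binding sites of trr, mapped by chromatin immunoprecipitation and sequencing (ChIP-seq) in heads of wild-type Drosophila melanogaster, were sorted by length, and the broad sites off the X chromosome are described here. Of 3371 sites in the deposited list, 504 (15.0%) lay outside the X chromosome and spanned at least 700 bp, and these are called broad sites. The other 2652 sites off the X were shorter than 700 bp and are called shorter sites. The X chromosome held 215 sites, of which 23 reached 700 bp, and none of these was a member. Because the members were chosen by length, their length is given as a description and no test was made on it. Coordinates are those of genome build dm3, as deposited.

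The sites come from 2 ChIP replicates and 1 input sample of flies aged 0 to 5 days, combined by the authors into a single list with no score. The values for sites therefore have no replicate error, and all intervals on shares are exact Clopper-Pearson 95% intervals that cover counting error only. Those for adjacent sites count each pair from both sides and are too narrow even for this. Expression was read from RNA-seq counts of heads, aged 0 to 5 days in the labels and 1 to 5 days in the methods. The libraries labelled trr knockdown (n = 2) carried elav-Gal4, which is active in neurons, together with UAS-dicer2 and a hairpin against trr (UAS-trr-RNAi). Their controls (n = 2) lacked the hairpin against trr. The methods name the attP2 background strain or an mCherry-RNAi strain as the source of such controls. Which of them served for RNA-seq is not given in the sources used here. The libraries labelled G9a mutant (n = 3) were G9a DD1 flies, set against a precise excision control (n = 3). The replicates were biological, per the study's methods.

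The protein trr is the fly relative of mammalian KMT2C and KMT2D. It sits in a COMPASS-like complex that places methyl groups on lysine 4 of histone H3, chiefly the single methyl mark found at enhancers, and it acts with the ecdysone receptor EcR on steroid-responsive genes. G9a is a methyltransferase for lysine 9 of histone H3. The fourth chromosome of Drosophila is small, gene-bearing and packed in a heterochromatin-like form, and the sequences named Het in build dm3 are pericentric heterochromatin that was not joined to the arms.

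Broad sites were 700 to 2589 bp long, with a median of 864.5 bp (quartiles 773 and 1010.25 bp), against a median of 380 bp (157 to 699 bp) for shorter sites. They made up 16.0% of the sites off the X but 30.7% of the bases those sites covered, 473185 bp in all. Of the 504, 176 were shorter than 800 bp, 136 (27.0%) reached 1000 bp, 21 reached 1500 bp and 3 reached 2000 bp. The distribution had no gap at the threshold: 264 further sites were 600 to 699 bp long. Just inside it were a site of 700 bp on arm 3R, 701 bp sites at MESR4 and Pfdn4 and 702 bp sites at CenG1A and CG15160. Just outside it were a 698 bp site on arm 3L and 699 bp sites at me31B, CG6191, RpLP2 and the gene FBgn0010575.

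**Figure D1:**
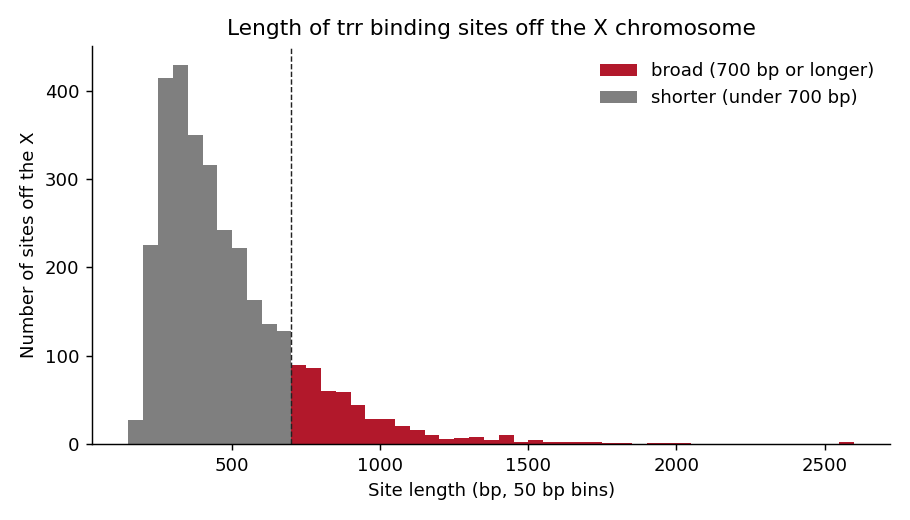
Number of sites off the X chromosome (vertical axis) by site length in 50 bp bins (horizontal axis, bp). The 504 broad sites (red) lie right of the dashed line at 700 bp and form the tail of a single distribution whose 2652 shorter sites (grey) have a median of 380 bp.

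The share of sites that were broad differed between chromosomes. On chromosome 4, 28 of 65 sites were broad (43.1%, 95% interval 30.8 to 56.0%), and on the heterochromatin sequences 20 of 44 were (45.5%, 30.4 to 61.2%). On the 4 main autosomal arms together the count was 456 of 3047 (15.0%, 13.7 to 16.3%), an interval below both others. The Het sequences of the right arm of chromosome 2 and of both arms of chromosome 3 each held several broad sites: 7 of 17 sites on 2RHet, 7 of 11 on 3LHet and 5 of 13 on 3RHet, with 1 of 3 on 2LHet. Within the main arms the share ran down from 17.9% on 2L (119 of 665; 15.1 to 21.0%) through 15.3% on 2R (111 of 724; 12.8 to 18.2%) and 14.1% on 3L (107 of 759; 11.7 to 16.8%) to 13.2% on 3R (119 of 899; 11.1 to 15.6%). Neighbours in that order had overlapping intervals, as did 2L and 3R. On the X, 10.7% of sites reached 700 bp (6.90 to 15.6%).

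**Figure D2:**
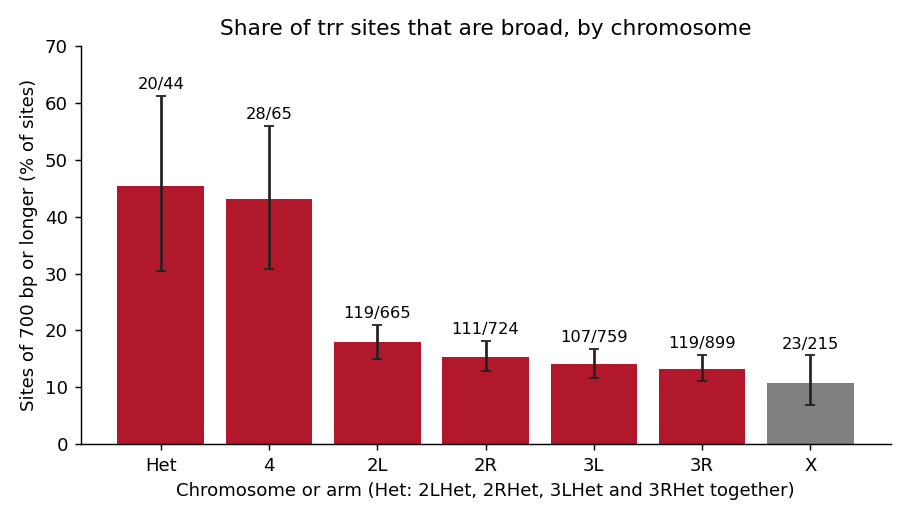
Percentage of trr sites that were 700 bp or longer (vertical axis) on the joined heterochromatin sequences (Het), chromosome 4, the 4 main arms and, in grey, the X, with the counts above each bar. Error bars are exact 95% intervals, and those of Het and chromosome 4 lie above those of the main arms.

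Seen from the broad sites, chromosome 4 carried 5.56% of broad sites and 1.40% of shorter sites. The heterochromatin sequences carried 3.97% of broad and 0.905% of shorter sites. The main arms held 90.5% of broad and 97.7% of shorter sites. The share of a length class on chromosome 4 was larger in each longer class: 0.450% of the 666 sites under 300 bp, 1.42% from 300 to under 500 bp, 2.31% from 500 to under 700 bp, 4.24% from 700 to under 850 bp, 6.06% from 850 to under 1000 bp and 7.35% of the 136 sites of 1000 bp or more. No site under 300 bp lay on a heterochromatin sequence. The median length of all sites was 618 bp on chromosome 4 and 631.5 bp on the heterochromatin sequences, against 418 bp on the main arms and 402 bp on the X. Among broad sites the median length differed little between the main arms, chromosome 4 and the heterochromatin sequences. The broad sites of chromosome 4 had a median of 881 bp (713 to 1668 bp), those of the main arms 864.5 bp and those of the heterochromatin sequences 849 bp. Their upper quartiles were 1147.5 bp on chromosome 4, 1008 bp on the main arms and 988 bp on the heterochromatin sequences.

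Chromosome 4 also had the densest broad sites. Over the distance between the outermost sites of each chromosome there were 23.9 broad sites per Mb on chromosome 4, 5.19 on 2L, 5.25 on 2R, 4.38 for arm 3L and 4.27 for arm 3R. Shorter sites were of more similar density, with 31.6 per Mb on chromosome 4 and 23.8, 29.0, 26.7 and 28.0 per Mb on these arms in the same order. The X had 1.07 sites of 700 bp or longer per Mb and 8.95 shorter ones. The longest broad sites of chromosome 4 were chr4:591225-592893 (1668 bp), chr4:1046826-1048469 (1643 bp) and chr4:1143654-1145208 (1554 bp).

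Every 1 Mb window of the 4 main arms held at least 1 broad site, with a median of 3.5 to 5 per window by arm. The fullest window of 2L held 11 broad sites among 36 sites, that of 2R 10 among 28, that of 3L 8 among 38 and that of 3R 10 among 38. When each arm was divided into 5 equal parts from its telomere end to its centromere end, the share of broad sites over the 4 arms was 13.8%, 12.4%, 16.4%, 13.9% and 18.8% (15.6 to 22.5% in the last). This order was not shared by the arms. On 2R the part next to the centromere had 33 broad sites of 114 (28.9%, 20.8 to 38.2%) and the part next to the telomere 16 of 151 (10.6%, 6.18 to 16.6%). On 3L the same pair had 22.1% (14.6 to 31.3%) and 11.4% (7.08 to 17.0%), with overlapping intervals. On 2L the highest share was in the middle part (22.4%), and on 3R the part next to the centromere had 11.8% (7.56 to 17.4%) and the part next to the telomere 18.5% (12.7 to 25.4%). Windows of 1 Mb gave a finer view near the centromere, with few sites each. The window next to it had 8 broad sites of 17 on 2L (47.1%) and 9 of 16 on 2R (56.25%). On 3R that window had 5 of 28 (17.9%). On 3L windows 23, 24 and 25, the last next to the centromere, had 7 of 16, 4 of 8 and 1 of 3. Near the centromere of 2R lay the broad sites of EcR, of the cohesin loader Nipped-B (chr2R:616216-617098) and of Nipped-A (chr2R:1138181-1138888), the fly relative of the cofactor TRRAP.

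**Figure D3:**
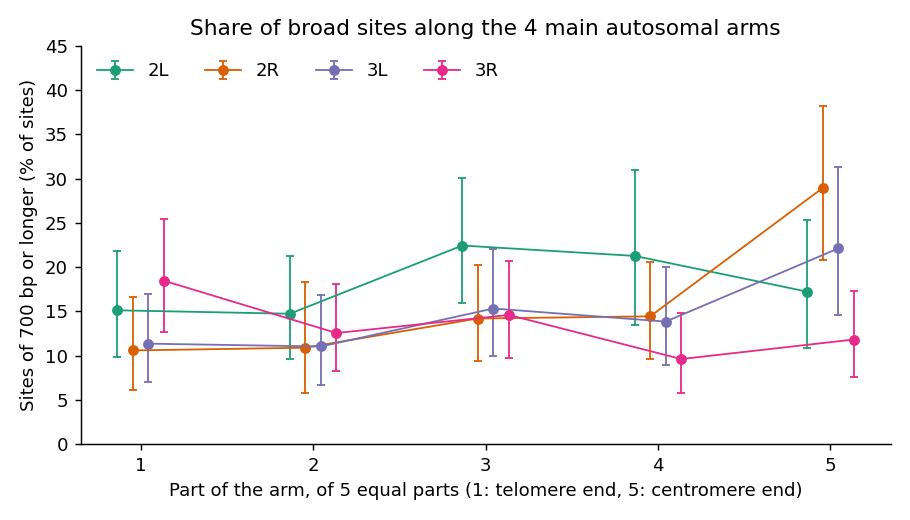
Percentage of sites that were broad (vertical axis) in each of 5 equal parts of the arms 2L, 2R, 3L and 3R, from the telomere end (1) to the centromere end (5). Points are single shares and bars exact 95% intervals, and the rise to 28.9% in the last part of 2R has no counterpart on 3R, where that part stood at 11.8%.

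Broad sites were spaced from their neighbours much as shorter sites were. The gap from a site's edge to the nearest other site of any length had a median of 7149.5 bp for broad sites (95% interval of the median 5840 to 8954 bp; quartiles 1551 and 19787 bp) and 6910 bp for shorter sites (6428 to 7626 bp; quartiles 1816.75 and 18435.5 bp). Another site lay within 1 kb of 19.4% of broad sites (16.1 to 23.2%) and 19.5% of shorter sites (18.0 to 21.1%). Within 5 kb the shares were 41.9% for broad sites (37.5 to 46.3%) and 42.7% for shorter sites (40.8 to 44.6%). The curves lay apart mainly at long distances. A neighbour within 50 kb was present for 91.3% of broad sites (88.5 to 93.6%) and 95.1% of shorter sites (94.2 to 95.9%), and on the main arms alone the shares were 92.5% of broad sites (89.7 to 94.8%) and 95.2% of shorter sites (94.3 to 96.0%), with overlapping intervals. The gap on the farther side had a median of 38230.5 bp for broad sites (33510 to 43264 bp) and 33981.5 bp for shorter sites (32589 to 35384 bp). Among the broad sites themselves, 21.6% of those of 700 to under 850 bp and 16.9% of those of 1000 bp or more had a neighbour within 1 kb, with overlapping intervals.

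**Figure D4:**
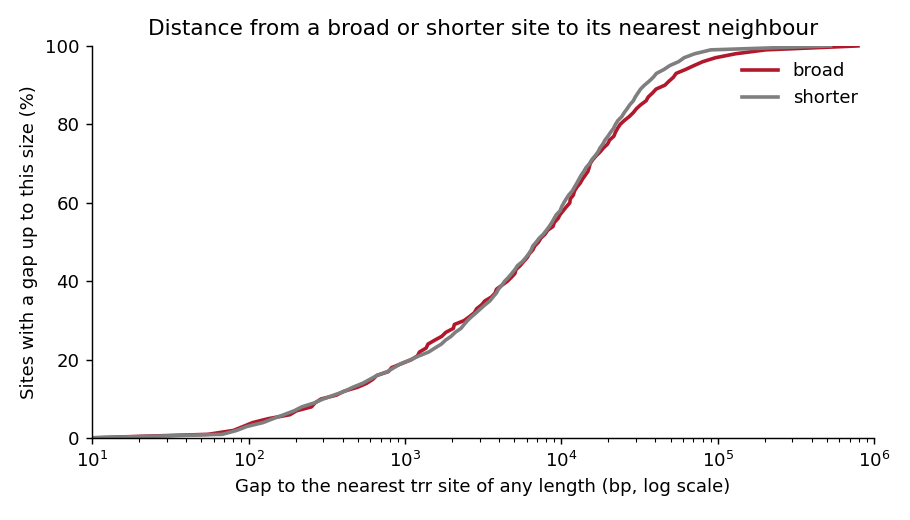
Cumulative percentage of sites (vertical axis) with a gap to the nearest trr site up to the size on the horizontal axis (bp, log scale), for broad (red) and shorter (grey) sites off the X. The curves overlie each other up to about the median, 7149.5 bp for broad and 6910 bp for shorter sites, and broad sites lag at long gaps.

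The same held within single chromosomes, with wide intervals on the small ones. Median gaps for broad and shorter sites were 9556 and 7186 bp on 2L, 6606 and 6901 bp on 2R, 6936 and 6886 bp on 3L, 6707 and 6786 bp on 3R, and 5814 and 6561 bp on chromosome 4. On 3R 21.0% of broad sites (14.1 to 29.4%) and 14.6% of shorter sites (12.2 to 17.3%) had a neighbour within 500 bp, and on 2R the shares were 9.01% of broad sites (4.41 to 15.9%) and 14.2% of shorter sites (11.5 to 17.2%). The heterochromatin sequences were sparse for both classes, with median gaps of 33482.5 bp for 20 broad sites and 22428 bp for 24 shorter sites.

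Next to a broad site, 21.3% of adjacent sites were broad (214 of 1003; 18.8 to 24.0%), against 14.9% next to a shorter site (789 of 5291; 14.0 to 15.9%). Each pair of adjacent sites enters these counts from both sides, so the counts are not independent. The intervals on adjacent sites are therefore too narrow, and their separation cannot show a difference. Part of the difference lay between chromosomes: on the main arms the shares were 19.3% next to broad sites (16.8 to 22.0%) and 14.2% next to shorter sites (13.3 to 15.2%). By arm the shares lay furthest apart on 2L, with 26.1% next to broad sites (20.6 to 32.1%) and 16.1% next to shorter sites (14.0 to 18.5%). The share next to broad sites was also the higher one, with overlapping intervals, on 2R (18.9% next to broad and 14.7% next to shorter sites) and on 3L (18.7% next to broad and 13.4% next to shorter sites). On 3R the shares were 13.5% next to broad sites and 13.1% next to shorter sites, and on chromosome 4 they were 40.0% and 45.2%, so the order was not common to all chromosomes. Among sites within 1 kb of each other, 19.0% of the neighbours of broad sites (12.0 to 27.9%) and 15.4% of those of shorter sites (12.5 to 18.7%) were broad.

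Sites less than 5 kb apart were joined into runs. Of the sites in runs of 4 or more, 16 of 169 were broad (9.47%, 5.51 to 14.9%), against 16.2% of single sites (293 of 1813; 14.5 to 17.9%), 16.0% in runs of 2 and 18.0% in runs of 3. A single run held 3 broad sites and no shorter site, chr2L:10263404-10270274, with sites annotated to REPTOR-BP, CG4957 and Mulk. REPTOR-BP encodes the partner of a transcription factor held back by TOR signalling. The nearest broad site of a broad site was a median of 54829 bp away, and 22574 bp on chromosome 4. The tightest pair of broad sites was chr3R:26441640-26442625 and chr3R:26442714-26443470, 89 bp apart. Next came the pair at robl, which encodes a dynein light chain, and CG14478 on 2R (98 bp), and that at CG4957 and Mulk (194 bp).

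The most isolated broad sites lay in heterochromatin sequences. The site chr3LHet:1395769-1397191 (1422 bp) had no other site within 789167 bp. The site chr3RHet:1097645-1098411 had none within 526980 bp, and chr2RHet:2157338-2158384, in an intron of CG41242, none within 414765 bp. On a main arm the largest gap was 312702 bp, at chr3L:24021130-24022088 and its neighbour chr3L:23707720-23708428, both in the part of the arm next to the centromere.

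Gene names at sites were taken from the study's annotation list, which was held here only in part: it covered 2L, 2R, 2LHet, 2RHet and the greater part of 3L, and 312 of the 504 broad sites. The 192 broad sites with no entry included all 147 on 3R and chromosome 4, 33 on 3L and 12 on heterochromatin sequences. The list gave 302 genes to the 312 sites and 1372 genes to shorter sites alone.

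The 10 longest broad sites were spread over the main arms, and 6 of them had a gene name. The second longest, chr2L:16703148-16705708 (2560 bp), was annotated to mir-9b and a 3' UTR. Vha14-1, which encodes a subunit of the proton pump of acidic organelles, had the site chr2R:11566227-11568159 (1932 bp) at its promoter. PNUTS, a regulatory subunit of protein phosphatase 1 in the nucleus, had chr2L:870021-871840 (1819 bp). CG6610 had chr3L:6068188-6069952 (1764 bp), the G protein gamma subunit gene Ggamma30A of the photoresponse had chr2L:9271113-9272822 (1709 bp), and the zinc finger gene luna had chr2R:6993986-6995661 (1675 bp). The sites without a name were chr3R:5166065-5168654 (2589 bp), the longest of all, chr3R:27434988-27436992 (2004 bp), chr3L:22127438-22129397 (1959 bp) and chr3R:14024500-14026207 (1707 bp).

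EcR, the nuclear receptor for ecdysone, was the gene with the most broad sites. Its 3 broad sites were chr2R:2019105-2019826 (721 bp) at a promoter, chr2R:2020487-2021366 (879 bp) in an intron, 661 bp from the first, and chr2R:2056399-2057215 (816 bp) at another promoter, and EcR had 2 shorter sites besides. A further 8 genes had 2 broad sites each. They were Sdc, a heparan sulfate proteoglycan; Lar, a receptor tyrosine phosphatase of axon guidance; CadN2, a neural cadherin; mam, the Notch coactivator mastermind; RpLP2, a ribosomal stalk protein; CenG1A, a GTPase regulator; gus, a SOCS-box protein; and bun, a TSC22-domain protein. The 2 sites of Lar (760 and 921 bp) were 2662 bp apart, those of RpLP2 (937 and 1026 bp) 1101 bp, those of gus (703 and 1038 bp) 5186 bp and those of Sdc (950 and 1432 bp) 62850 bp. Of the genes with a broad site, 75 of 302 had a second site of any length (24.8%, 20.1 to 30.1%), against 159 of 1372 genes with shorter sites alone (11.6%, 9.94 to 13.4%). No test was made of these shares, since a gene with more sites has more chances to hold a broad one.

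Lists of genes by function were read for their broad sites on 2L, 2R and 3L. The annotation held here covered 3L only in part. A listed gene on the rest of 3L has no entry whether or not it has a site, so no entry does not mean no site. Of all 1674 genes named at a site, 302 (18.0%) had a broad one, and no list was tested against this share. Of 16 ecdysone response genes on 2L, 2R and 3L, 5 had a broad site, 6 had shorter sites alone and 5 had no entry. The 5 were EcR, its coactivator tai (chr2L:9166347-9167116, 769 bp), the early ecdysone-induced gene Eip74EF (chr3L:17570630-17571408, 778 bp), the transporter gene E23 (972 bp) and the zinc finger gene crol (856 bp). Hr3, Hr38, Hr39, Kr-h1, Hnf4 and Blimp-1 had shorter sites alone. Of 27 axon guidance and recognition genes, 5 had a broad site and 16 shorter sites alone. Those with a broad site were the receptor gene robo3 (841 bp), the semaphorin gene Sema1a (1338 bp), the adhesion gene Con (705 bp), Lar and the metalloprotease gene kuz (1119 bp). The single sites of robo1 and robo2, relatives of robo3, measured 226 and 249 bp.

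Of 11 learning and memory genes, 4 had a broad site: Pka-C1 and for, which encode cyclic nucleotide dependent kinases (751 and 794 bp), the dynein regulator gene Lis-1 (789 bp) and Pkc53E (773 bp). Of 18 Ras signalling genes matched by symbol, 4 had one: the inhibitor genes sty (1142 bp) and RasGAP1 (750 bp), raw (1181 bp), and rl, which encodes the MAP kinase of the pathway (1206 bp, on 2RHet). RapGAP1 was on the list under another spelling and is not among the 18. It had a broad site of 752 bp at its promoter and a shorter site. Genes of the same pathway with shorter sites alone numbered 10 and included both activators (Sos and spi) and inhibitors (aos, kek1, aop and Cbl). Clk, which encodes the circadian activator, was the single clock gene of 6 with a named broad site (865 bp, in an intron), and 4 of the 6 had no entry. Ubi-p63E, a polyubiquitin gene, was the single one of 7 heat shock and ubiquitous genes (785 bp), and 4 of the 7 had no entry. None of the 7 listed genes for the trr complex and other H3K4 methyltransferases had an entry. Ncoa6, a member of the trr complex that the list did not hold, had a broad site of 906 bp at its promoter (chr2L:5326507-5327413); it was chosen after its values were seen.

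Expression was not used to choose the sites, so the genes with a broad site were followed in the RNA-seq data. The 10 libraries held 18114408 to 28171883 counts over genes. In the libraries labelled trr knockdown the trr gene had 2651 and 2265 counts, against 1964 and 2589 in the controls (log2 fold change 0.12, edgeR adjusted p = 0.679). In the libraries labelled G9a mutant the G9a gene had 1526, 1732 and 1547 counts, against 1087, 1208 and 1011 in the controls (log2 fold change 0.27, edgeR adjusted p = 0.188). Neither targeted gene was lower, and directions below are between libraries as labelled. The 11 photoreceptor markers, none of them at 0, summed to 77933 to 84537 CPM (counts scaled to the library total) in the G9a mutant libraries and 55774 to 64185 in their controls. Fat body markers (7 genes) summed to 2287 to 3342 CPM in G9a mutant libraries and 3260 to 7634 in their controls, and to 5351 to 5548 CPM in trr knockdown libraries and 7284 to 9504 in theirs. Muscle markers (7 genes) summed to 7673 to 8571 CPM in G9a mutant libraries and 9367 to 9518 in their controls, and to 3902 to 4059 CPM in trr knockdown libraries and 3073 to 3407 in theirs. The part of these differences in the results for genes with a broad site was not tested. In bulk heads, more cells of a type and more RNA per cell cannot be told apart.

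In the trr comparison, 275 of 289 counted genes with a broad site passed the count filter and 1 was called, at an adjusted p under 0.05 and a fold change over 1.5. Over all 11416 genes tested, 1.03% were called, 0.71% higher and 0.324% lower in the knockdown libraries. The share for genes with a broad site was 0.364%, and for genes with shorter sites alone it was 0.891% (11 of 1235). Their median log2 fold change was -0.01, with quartiles of -0.15 and 0.13, against a median of 0.00 over all genes. At an unadjusted p under 0.05, 55 (20.0%) of them passed, against 19.2% of all genes, and DESeq2 called 4 (Incenp, Rgl, rogdi and Vha14-1), 1.45% against 4.34% of all genes.

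The called gene was Incenp, which encodes a subunit of the chromosomal passenger complex of dividing cells and has a 748 bp site at its promoter (chr2R:3165562-3166310). It had 127 and 131 counts in the libraries labelled trr knockdown, against 22 and 16 in their controls. The groups did not overlap, and Incenp rose by 2.76 ± 0.27 on the log2 scale (SE, n = 2 libraries per group; edgeR adjusted p = 0.0198). In the G9a libraries the same gene had 9, 15 and 24 counts in mutants and 6, 15 and 20 in controls. Without knockdown replicate 1 or 2 its log2 fold change was 2.83 and 2.70, and those fits called 0 and 1 of all genes, so the call was lost with nearly all others. The number of genes with a broad site called was 0 in both, 3 without control replicate 1 (1.09% against 6.79% of all genes) and 34 without control replicate 2 (12.4% against 17.9% of all genes).

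The genes with the most or the longest broad sites gave no call in this comparison. EcR had 2441 and 2121 counts in the knockdown libraries, against 1942 and 2166 in controls, and the groups overlapped (log2 fold change 0.16 ± 0.10, edgeR adjusted p = 0.419). The coactivator tai had 5641 and 5215 counts in knockdown libraries, against 3926 and 4717 in controls (log2 fold change 0.34 ± 0.11, edgeR adjusted p = 0.197). Vha14-1, with the longest site at a named promoter, had 795 and 888 counts in knockdown libraries, against 2141 and 1455 in controls. These groups did not overlap, and the log2 fold change of -1.09 ± 0.20 missed the threshold (edgeR adjusted p = 0.0827), while DESeq2 called it (adjusted p = 1.8e-05). For Ubi-p63E the counts were 2705 and 2937 in knockdown libraries, against 11504 and 3422 in controls. Its log2 fold change of -1.39 ± 0.51 was -0.27 without control replicate 1. The 9 genes with 2 or more broad sites had log2 fold changes of -0.12 to 0.20. An unadjusted edgeR p under 0.05 was reached by 0 of them, beside 19.2% of all genes, and DESeq2 called 0, beside 4.34% of all genes.

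In the G9a comparison, 278 genes with a broad site were tested and 9 were called, 3.24%. Over all 12329 genes tested 7.56% were called, 1.99% higher and 5.57% lower in the mutant libraries. Genes with shorter sites alone had 49 of 1249 called (3.92%), 13 higher and 36 lower. Of the genes with a broad site, 7 were higher and 2 lower, and the median log2 fold change was 0.02 (quartiles -0.13 and 0.21), against 0.04 over all genes.

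CG6431, whose 902 bp site is intergenic, had 102, 90 and 83 counts in the libraries labelled G9a mutant, against 1, 6 and 2 in controls. It rose by 4.66 ± 0.56 on the log2 scale (SE, n = 3 per group; edgeR adjusted p = 0.00166), and it had 0 or 1 count in each of the 4 trr libraries. Rh5, the blue-sensitive opsin gene, had a 1357 bp intergenic site and 12362, 14619 and 15857 counts in mutants, against 5167, 6636 and 6709 in controls (log2 fold change 0.94 ± 0.09, edgeR adjusted p = 0.000751). The photoreceptor markers given above were also higher in these mutants, and their part in the result for Rh5 was not tested. CG42238, with a 904 bp site, had 1758, 2231 and 1895 counts in mutants, against 624, 961 and 984 in controls (log2 fold change 0.93, edgeR adjusted p = 0.00492). The actin-binding gene capt, with a 937 bp site, had 5758, 8176 and 9046 counts in mutants, against 3126, 4060 and 4110 in controls (log2 fold change 0.74, edgeR adjusted p = 0.00544). UGP, which makes UDP-glucose, was lower, with 1994, 2313 and 1936 counts in mutants, against 2573, 3119 and 2688 in controls (log2 fold change -0.69, edgeR adjusted p = 0.00537). These 5 genes were called under each alternative tried.

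The other 4 called genes lost their calls when single libraries were left out, while their log2 fold changes over all alternatives stayed at 0.71 to 1.07 for rl, 0.67 to 0.95 for Bet3, 0.59 to 0.75 for CG17328 and -0.75 to -0.49 for Acsl. The MAP kinase gene rl had 272, 278 and 315 counts in mutants, against 74, 155 and 151 in controls (log2 fold change 0.94, edgeR adjusted p = 0.0388). Bet3, a subunit of a vesicle tethering complex, had 727, 1420 and 1248 counts in mutants, against 425, 609 and 547 in controls (log2 fold change 0.81, edgeR adjusted p = 0.0208). CG17328 had 184, 214 and 223 counts in mutants, against 91, 134 and 104 in controls (log2 fold change 0.65, edgeR adjusted p = 0.0366), and with the replicate number as a block its adjusted p was 0.0505. Acsl, a long-chain acyl-CoA synthetase gene, had 3968, 4830 and 3645 counts in mutants, against 5844, 5363 and 4728 in controls (log2 fold change -0.64, edgeR adjusted p = 0.0385). In all 9 genes the CPM values of mutants and controls did not overlap, while the raw counts of Acsl did. The genes were called on these same libraries, so this separation is no further support for the calls. Bet3, capt, CG17328, CG42238, Acsl and UGP overlap other genes in the RefSeq annotation (Release 6), and whether the counting used strand is not given in the sources used here, so reads of such neighbours may be included.

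**Figure D5:**
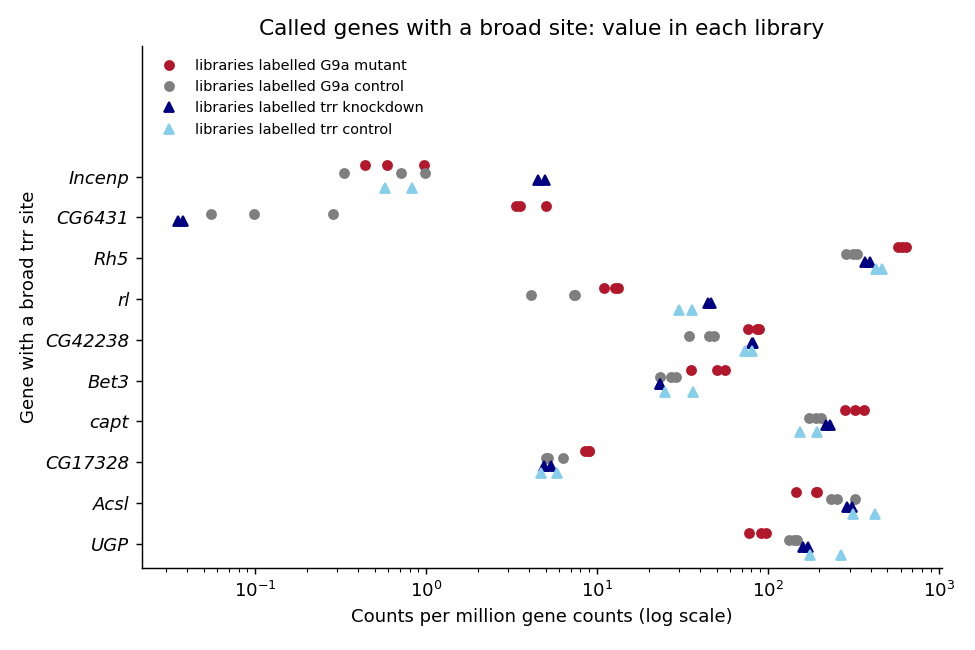
Counts scaled to the library total of gene counts (CPM; horizontal axis, log scale) of the 10 called genes with a broad site, with 1 point per library and a library at 0 counts left out. Incenp separates the trr knockdown libraries from their controls, and the other 9 genes separate the G9a mutant libraries from theirs. The genes were chosen by their calls in these libraries, so the separation is no further support.

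EcR was not called here either. It had 1685, 2151 and 2077 counts in mutants, against 1888, 1908 and 1874 in controls (log2 fold change -0.23 ± 0.09, edgeR adjusted p = 0.161). The counts of tai were 4080, 4912 and 4898 in mutants, against 5111, 4798 and 4978 in controls. Its log2 fold change of -0.39 ± 0.10 passed the p threshold (edgeR adjusted p = 0.0499) and not the fold threshold. PNUTS, with the sixth longest site, was similar with a log2 fold change of 0.48 ± 0.12 (edgeR adjusted p = 0.0380). The 9 genes with 2 or more broad sites had log2 fold changes of -0.45 (RpLP2) to 0.52 (gus), with 3 of 9 at an unadjusted p under 0.05 (25.5% of all genes). Of these 9, edgeR called 0 (7.56% of all genes) and DESeq2 called 0 (8.88% of all genes).

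The genes on chromosome 4, where broad sites were densest, have no site names here, so they were taken as a whole by chromosome. In the G9a comparison 7 of 88 were called, 5 higher and 2 lower, a share of 7.95% beside 7.56% of all genes, and DESeq2 called 15 (17.0% beside 8.88% of all genes). Their median log2 fold change was 0.40 (quartiles 0.15 and 0.62), against 0.04 over all genes. Of the 88, 78 were above 0, beside 6692 of all 12329 genes. In the trr comparison edgeR called 0 of 90, beside 1.03% of all genes, and DESeq2 called 1 (1.11%, beside 4.34% of all genes). An unadjusted edgeR p under 0.05 was reached by 6 (6.67%, beside 19.2% of all genes). The median log2 fold change was -0.08 (quartiles -0.19 and 0.03), against 0.00 over all genes. Of the 90, 27 were above 0, beside 5724 of all 11416 genes.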

How the data were processed

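The deposited list of trr sites holds positions only (chromosome, start and end). Per the study's methods the authors used BWA 0.6.1 and build dm3, discarded duplicate and poorly mapping reads, ran MACS2 on each replicate against input with unequal settings, and merged both sets of regions. Before merging, the authors removed clusters of replicate 1 peaks that they judged to hold many false positives with small binding regions. The effect of this step on site lengths was not tested. Regions with too few reads on average, or with unlike counts between replicates, were dropped. A site's length is thus that of a merged region, and its read minimum applied to the whole site, not per base. Unplaced and mitochondrial sequences were left out. Length was taken as end minus start. Het sequences and chromosome 4 were kept as off the X. No test was made across sites, which are not replicates. Whether start counts from 0 or 1 is not given in the sources used here.

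The deposited counts are whole-number reads per gene, made by the authors with BWA and HTSeq on Ensembl BDGP5 genes. Of 15682 gene rows, 95.7% matched a symbol, and 5 summary lines were left out; they held, among others, the reads in no gene (9.29 to 18.0% of reads). Genes with at least 10 counts over a comparison were fitted with edgeR 4.0.16 (quasi-likelihood, TMM, Benjamini-Hochberg over all genes; R 4.3.3), knockdown against its control and mutant against its control, each alone. A call needed an adjusted p under 0.05 and a fold change over 1.5. The fit was first tested on simulated counts. Same-numbered G9a libraries deviated together (r = 0.25, 0.18 and 0.44). Mutant replicate 2 went slightly more with control replicate 1 (r = 0.22), so pairing by number is not settled. The reported fits hold no replicate term, and the replicate block is given as an alternative. Intervals are exact Clopper-Pearson or order-statistic 95% intervals (scipy). Gene names of sites come from the study's annotation list, held in part. Named sites were the 10 longest, the 5 on each side of the threshold, the 3 tightest pairs and the 3 most isolated. Named genes were those of these sites, those with 2 or more broad sites, called genes and list members with a broad site. The members and the lists were chosen with earlier results of these data known. Alternatives were the length threshold, joining of close sites, main arms alone, other distances, normalization, DESeq2 1.42.0, filters, thresholds, the replicate block and leaving out each library.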

Additional observations from a re-analysis of the deposited data

Results flagged for a closer look

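The trr and G9a comparisons were set against each other in 1 edgeR fit of all 10 libraries, by the difference of their log2 fold changes (trr comparison minus G9a comparison). Over 12871 genes, 9.86% differed at an adjusted p under 0.05, and of 284 genes with a broad site 12 did (4.23%). Incenp differed by 2.82 (edgeR adjusted p = 0.0266), with a fold change of 2.76 for trr and -0.06 for G9a. Oatp74D, a membrane transporter gene, differed by 0.90 (0.44 and -0.45; edgeR adjusted p = 0.00542), tai by 0.73 (0.34 and -0.39; edgeR adjusted p = 0.0223), Pez by 0.67 (0.40 and -0.27; edgeR adjusted p = 0.0330) and CG9932 by 0.59 (0.21 and -0.38; edgeR adjusted p = 0.0435). The difference had the other sign for Vha14-1 (-1.26, from -1.09 and 0.17; edgeR adjusted p = 0.0165), Bet3 (-1.19, from -0.38 and 0.81; edgeR adjusted p = 0.0195) and Rh5 (-1.15, from -0.22 and 0.94; edgeR adjusted p = 0.000647). It was also below 0 for CG42238 (-0.85, from 0.08 and 0.93; edgeR adjusted p = 0.020), Pfdn4 (-0.83, from -0.46 and 0.37; edgeR adjusted p = 0.0102), osi (-0.61, from -0.22 and 0.39; edgeR adjusted p = 0.0154) and vari (-0.57, from -0.31 and 0.26; edgeR adjusted p = 0.0336). The 2 comparisons differ in genetic background and in the experiment they belong to, so these differences and the backgrounds cannot be told apart.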

How the results depend on the processing

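No log2 fold change of a named gene followed under alternatives changed sign. The order of broad and shorter sites was less stable. It reversed for the median gap after joining close sites and at a threshold of 800 bp. The order of the shares with a neighbour within 1 kb reversed on the main arms alone and after joining. For a neighbour within 5 kb it reversed after joining. The number of broad sites was 768 at a threshold of 600 bp, 328 at 800 bp and 136 at 1000 bp, and the share on the main arms was 23.3%, 9.55% and 3.97% at these thresholds and 20.2% when sites under 500 bp apart were joined. At 1000 bp the share was 15.4% on chromosome 4 and 11.4% on heterochromatin sequences. The interval of chromosome 4 (7.63 to 26.5%) then lay above that of the main arms (3.31 to 4.73%), and that of the heterochromatin sequences (3.79 to 24.6%) overlapped it. In the trr comparison the number of called genes with a broad site, 1, became 4 with DESeq2 (1.45%, against 4.34% of all genes). It became 9 with the replicate block (3.27%, against 7.17%). For sites of 1000 bp or more it was 0 of 75, beside 1.03% of all genes. An unadjusted edgeR p under 0.05 was reached by 20 of these 75 (26.7%), beside 19.2% of all genes. The number was 0 to 34 when 1 library was left out, and the share of all genes called, given above, rose with it. Each such fit leaves a single library in 1 group, so these counts cannot be weighed. Same-numbered trr libraries did not deviate together (r = -0.06), so they share only a number. In the G9a comparison the 9 called genes became 18 on adjusted p alone (6.47%, against 11.1% of all genes). They became 3 for sites of 1000 bp or more (4%, against 7.56% of all genes), and 6 to 7 when 1 library was left out. The replicate block gave 13 (4.68%, against 8.87%). Of the named genes followed under alternatives in this comparison, the block changed the call of CG17328 alone. With 1 library left in a group, its spread is assumed to equal that of the other group. The median gap of broad sites was 8983 bp after joining close sites, against 9251 bp for shorter sites, and measured between centres 10.3% of broad and 14.7% of shorter sites had a neighbour within 1 kb, since longer sites have more distant centres. The limits are a single list without scores, names for 312 of 504 sites, and 2 libraries per group in the trr comparison.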

Other observations

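Among the genes with a broad site, 2 further groups were read after the names had been seen. The first holds 13 chromatin regulators. Ncoa6, a member of the trr complex, had a 906 bp site at its promoter (chr2L:5326507-5327413), and E(Pc), a subunit of an acetyltransferase complex, had one of 1585 bp. The O-GlcNAc transferase gene sxc had 1187 bp, the TFIID subunit gene Taf4 994 bp, Nipped-B 882 bp and the histone demethylase gene Kdm4B 859 bp. In each comparison edgeR and DESeq2 called 0 of the 13. Of all genes, edgeR called 1.03% and DESeq2 4.34% for trr, and 7.56% and 8.88% for G9a. An unadjusted edgeR p under 0.05 was reached by 2 of the 13 in each comparison, beside 19.2% (trr) and 25.5% (G9a) of all genes. Their log2 fold changes ran from -0.70 (Sgf29) to 0.23 in the trr comparison, with 11 of 13 above 0, beside 5724 of all 11416 genes. In the G9a comparison they ran from -0.26 to 0.47 (Sgf29), with 7 of 13 above 0, beside 6692 of all 12329 genes.

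The second group holds 7 genes of the beat, side and dpr families, which encode cell surface proteins of neuronal recognition. The longest site among them was that of side-VIII (chr2R:16310567-16312095, 1528 bp), and beat-IIIb had 874 bp. Both tools called 0 of them, with 0 and 2 at an unadjusted edgeR p under 0.05 (trr and G9a), beside 19.2% and 25.5% of all genes. Their log2 fold changes were -0.22 to 0.33 in the trr comparison and -0.27 to 0.43 in the G9a comparison. Broad sites were also annotated to the microRNA genes mir-14 (810 bp), mir-276a (792 bp) and mir-4981 (854 bp). The 2 groups were not fixed in advance, and they were not tested as groups.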
